A study of Canis lupus familiaris with 32 samples.

Results

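The 7 osteosarcomas of Rottweilers among 32 canine tumors were compared with the 25 tumors of the other dogs, which belonged to 14 named breeds, 5 of them Great Danes, or were crosses (3 dogs). The breed of each dog was taken from the clinical table of the study, matched to the arrays through the tumor number in the sample titles, since the sample labels give none. Each tumor was hybridized once on a 2-color cDNA array, in which tumor RNA and RNA of a reference carry different dyes, and the reference was a pool made from all 32 tumors. A log2 ratio of 0 is therefore the level of the pool, and a positive breed difference means a higher ratio in Rottweiler tumors. The Rottweiler tumors came from 4 short survivors (SS) and 3 long survivors (LS), and those of the other dogs from 12 SS and 13 LS, where SS dogs lived less and LS dogs more than the limit the study set. The tumor carried Cy5 on 3 Rottweiler arrays (tumors 5, 7 and 32) and Cy3 on 4 (tumors 11, 16, 23 and 27), against 13 and 12 arrays of the other dogs. No dog had been treated before the tumor was taken, and chemotherapy afterwards was recorded for 5 Rottweilers and 16 other dogs. The Rottweilers were 3 females and 4 males aged 5 to 10 years (median 7.33), and the other dogs 11 females and 14 males aged 2 to 11 years (median 7). A fibroblastic component was recorded in 5 of 7 Rottweiler tumors and 11 of 25 others, a chondroblastic one in 2 and 6, a limb site in 6 and 20, and a high grade in 6 and 19. Limb here means any site but rib, mandible and extraskeletal. Scapula and metatarsus thus count as limb, though the study names them apart from its appendicular sites.

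Osteosarcoma is defined by tumor cells that make bone matrix, rich in type I collagen, and it arises most often in the long bones. In dogs the risk differs by breed, and Rottweilers are known for a high one. Tumor tissue also holds fibroblasts, vessels, blood cells, osteoclasts and at times the surrounding muscle, so an array of whole tissue reads all of these together. Breed itself could not be checked against the expression values. Osteoblast markers on the array (COL1A2, SPARC, SPP1, ALPL and PHEX) were measured only relative to a pool of the same tumors, so their ratios cannot show whether they are present.

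No probe distinguished the Rottweiler tumors at the chosen threshold. In a limma model with dye orientation and survival group as covariates, 0 of 22176 probes (0%) passed an adjusted p under 0.10, and the smallest adjusted p was 0.793. At an unadjusted p under 0.05 there were 1078 probes (4.86%), beside the 5% such a threshold passes, both directions together, when nothing differs. Of the 1078, 712 were higher in Rottweiler tumors (3.21% of all probes) and 366 lower (1.65%). Significance Analysis of Microarrays and a rank-sum test, both without covariates, also called 0 probes, and the rank-sum test had 584 at an unadjusted p under 0.05. Robust regression called 39 probes (26 higher, 13 lower), CD36 among them with a limma adjusted p of 0.0382, and the model within the tumors in Cy5 called 9. The standard error of a breed difference had a median of 0.117 on the log2 scale, and the half-width of its 95% interval was 0.238 at the median probe and 0.755 at the 95th percentile. The absence of calls therefore does not show that the tumors were alike. Of 5246 named genes 2375 (45.3%) had a mean difference above 0, and the median was -0.01. The breed differences over all tumors given from here on did not pass the test across all probes, and their intervals are those of single probes, not adjusted for the number of probes.

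The direction of the ratios rests on the switching of dye-swapped arrays stated in the methods, and base 2 of the logarithm was likewise an inference. The mean of a probe over the Cy5 arrays and its mean over the Cy3 arrays had a correlation of -0.658, taken across probes that do not count as independent. A remaining dye effect has opposite signs in Cy5 and Cy3 arrays where swapped ratios were switched, and the same sign where not. The negative sign is therefore that of switched ratios. Of 47 probes of genes the study listed as higher in SS, 45 were higher in SS here, a list chosen on these same arrays. Turning the sign of the Cy3 arrays undoes that switching. It gave 37 of the 97 genes named by rule a difference of the opposite sign. CD36, ABLIM1, COL5A2, SPARC, TNNT1, DES and PECAM1 were among them. Leaving out 1 Rottweiler tumor moved the difference of 43 of the 97 by over 1.5 times, and for the main ones that value is given with the gene. The strength of the dye profile ran from 0.638 to 1.288 (median 0.988) in Rottweiler arrays and from 0.274 to 1.474 (median 1.03) in the others. Breed differences were accordingly taken with the orientation as a covariate and also within each orientation, and between the orientations they correlated at only 0.0235 across probes. Among the Cy5 arrays 76 probes (0.343%) were higher in every Rottweiler tumor than in any other tumor and 50 (0.225%) were lower. Among the Cy3 arrays these were 5 probes (0.0225%) and 3 probes (0.0135%).

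CD36, a scavenger receptor and fatty acid transporter of macrophages, adipocytes and capillary endothelium, had the smallest p. Its log2 ratios were 0.25, 0.78 and 0.33 in the Rottweiler tumors in Cy5 and 1.83, 0.58, 0.04 and 0.68 in those in Cy3, against -0.76 to 0.45 (median -0.42) and -0.46 to 0.87 (median -0.05) in the other dogs. All 7 Rottweiler tumors lay above the mean of the other dogs of their orientation, but the groups overlapped in both orientations. The difference was 0.78 ± 0.17 (SE, 95% interval 0.44 to 1.13, limma adjusted p = 0.793), with 0.74 within Cy5 and 0.81 within Cy3.

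CD209, a C-type lectin of dendritic cells and macrophages, was 0.41, 1.21 and 1.15 in the Cy5 and 0.35, 0.10, 0.02 and 0.18 in the Cy3 Rottweiler tumors, against -0.62 to 1.41 and -0.56 to 0.19 in the other dogs. Again all 7 lay above the mean of the others, and the highest other tumor, number 19 with 1.41, lay above every Rottweiler tumor. Its difference was 0.68 ± 0.16 (SE, limma adjusted p = 0.793). Each tumor was left out in turn, and a probe was called only without tumor 19, whose value went most against the CD209 difference. That probe was CD209, with 0.72 and a limma adjusted p of 0.0484. Among limb tumors it was called with 0.77 and a limma adjusted p of 0.0896. Tumor 19 was extraskeletal and is left out there too, so these calls are not separate evidence. ABLIM1, which links actin to LIM domains, had a difference of 0.79 ± 0.20 (SE), with its highest ratio, 2.58, in Rottweiler tumor 23.

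**Figure D1:**
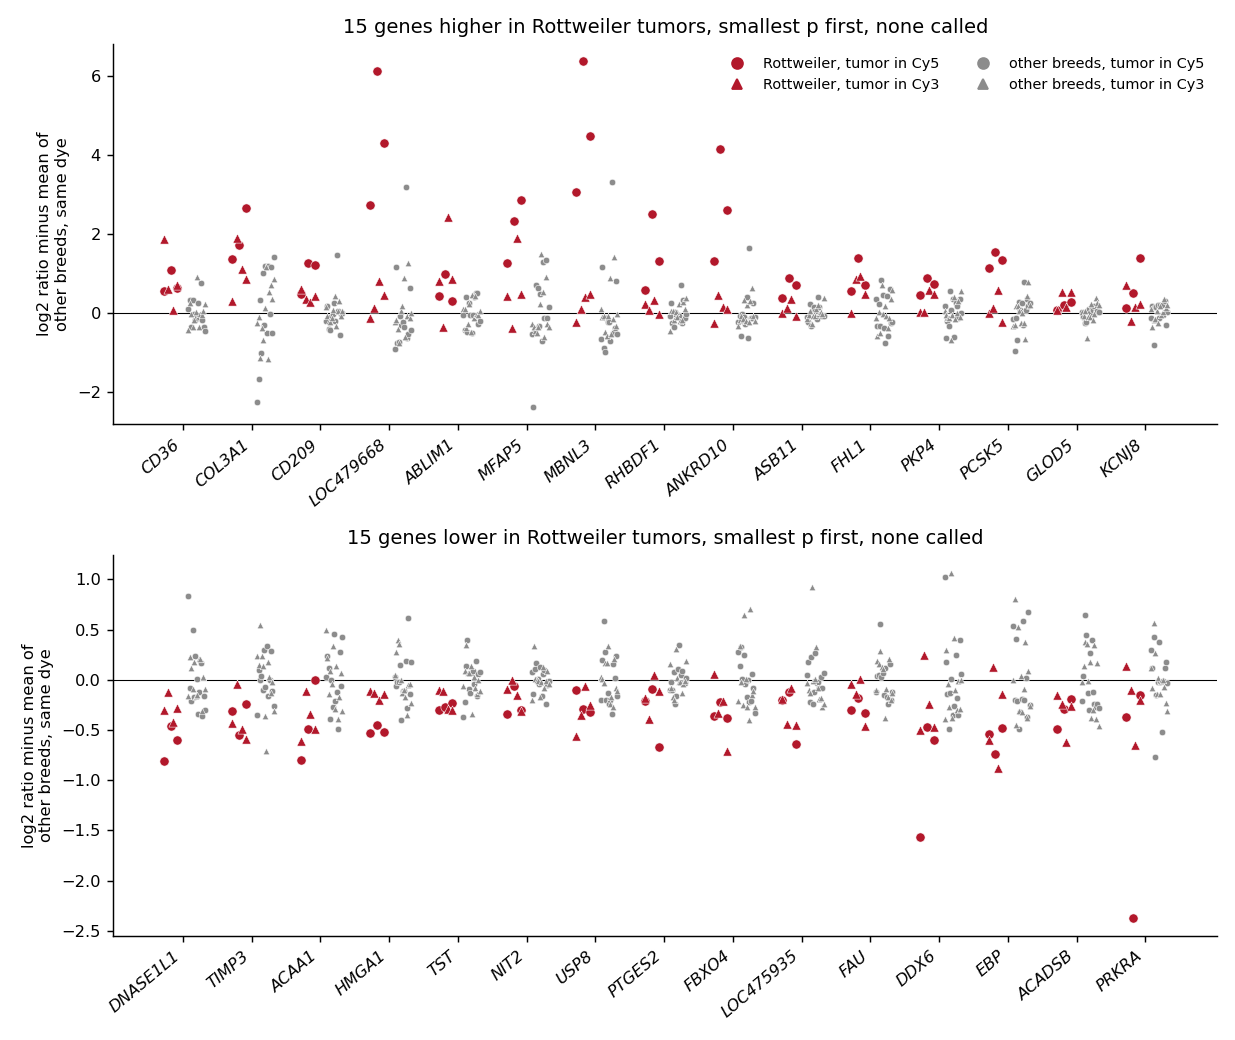
Log2 ratio of each tumor minus the mean of the other dogs of the same dye orientation (vertical axis, log2) for the 15 genes higher (top) and 15 lower (bottom) in Rottweiler tumors with the smallest p, at the probe with the smallest p. Rottweiler tumors are red and the tumors of other breeds and crosses grey, circles are tumors in Cy5 and triangles tumors in Cy3. For CD36 the 7 Rottweiler tumors lie between 0.071 and 1.859.

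On the lower side the differences were smaller. DNASE1L1, a member of the DNase I family, was -0.49, -0.15 and -0.28 in the Cy5 Rottweiler tumors, against -0.04 to 1.15 in the other Cy5 tumors, and these did not overlap. In Cy3 it was -0.40, -0.23, -0.52 and -0.38, against -0.42 to 0.12, which did. The difference was -0.45 ± 0.11 (SE, 95% interval -0.68 to -0.22, limma adjusted p = 0.793), and its 3 probes had the same sign. HMGA1, an architectural chromatin protein, lay between -0.25 and -0.07 in all 7 Rottweiler tumors, against -0.40 to 0.99 in the others. Centered on the other dogs of the same orientation, its SD was 0.192 among Rottweiler tumors and 0.238 among the others. Its difference was -0.31 ± 0.10 (SE, limma adjusted p = 0.992), with -0.48 in Cy5 and -0.15 in Cy3. TIMP3, an inhibitor of matrix metalloproteinases, differed by -0.39 with 3 of 4 probes of that sign. ACAA1 (-0.41) and ACADSB (-0.34), enzymes of fatty acid and branched-chain amino acid breakdown, EBP (-0.47), an enzyme of cholesterol synthesis, and TST (-0.23), NIT2 (-0.19) and PTGES2 (-0.23), also enzymes, lay on the same side. So did USP8 (-0.29) and FBXO4 (-0.33), which act on ubiquitin, FAU (-0.23), a ribosomal fusion protein, DDX6 (-0.53), an RNA helicase, PRKRA (-0.55), an activator of the kinase PKR, and LOC475935 (-0.31). Without tumor 7 PRKRA lay at -0.23, without tumor 32 PTGES2 at -0.14 and without tumor 5 DDX6 at -0.35. ACAA1 and FAU each had a further probe above 0, at 0.03 and 0.009.

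Fibroblast and matrix markers had the highest median of the lists with the ratios as deposited (0.50). With the sign of the Cy3 arrays turned, against the switching stated in the methods, it was only 0.08. Then 8 of 11 genes of the list lay above 0 and cartilage markers were highest (0.82). The list holds collagens, elastin (ELN), other proteins of the extracellular matrix and the filament protein vimentin (VIM). All 11 measured genes of 20 had a mean difference above 0 and the median lay beside -0.01 over all named genes, and 14 of 25 probes were higher at an unadjusted p under 0.05, beside 252 of 7694 named probes (3.28%), with 0 called. Probes of 1 gene are not independent, and the 14 came from 6 genes. COL3A1, the chain of type III collagen, had log2 ratios of 0.82, 1.19 and 2.11 in the Cy5 and -0.48, 1.11, 0.32 and 0.06 in the Cy3 Rottweiler tumors, against -2.79 to 0.88 and -1.96 to 0.38 in the other dogs. Tumor 32 was the highest of all tumors, and the groups overlapped. The difference was 1.51 ± 0.36 (SE, 95% interval 0.78 to 2.23, limma adjusted p = 0.793), and a further probe gave 1.86 ± 0.55. MFAP5, a microfibril protein, differed by 1.36 ± 0.35 (SE), with 2.31 in Cy5 and 0.60 in Cy3. The 5 probes of COL5A2, a chain of type V collagen, lay between 0.83 and 1.23.

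The mean level of the matrix list, centered on the other dogs of the same orientation, was above 0 in 7 of 7 Rottweiler tumors, between 0.125 and 1.385 with a median of 0.68, and above 0 in 12 of 25 others, between -1.108 and 0.898 with a median of -0.024. The ranges overlapped. The median difference was 0.70 within Cy5 and 0.39 within Cy3, and between 0.42 and 0.61 with each Rottweiler tumor left out in turn. With the fibroblastic component as a covariate it was 0.52, and 12 probes were higher at an unadjusted p under 0.05, beside 275 named probes (3.57%). In tissue of mixed cells, fewer cells of a type and less RNA per cell cannot be told apart. Among osteoblast markers, COL1A2 (1.17 ± 0.57, SE), a type I collagen chain, and SPARC (0.98 ± 0.49), a collagen-binding protein, also lay above 0, and so did ALPL (0.19), bone alkaline phosphatase. SPP1 (-0.60), osteopontin, and PHEX (-0.16), an endopeptidase of bone cells, lay below 0. The median of these 5 genes was 0.19, with -0.29 in Cy5 and 0.53 in Cy3, and -0.20 with the sign of the Cy3 arrays turned.

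**Figure D2:**
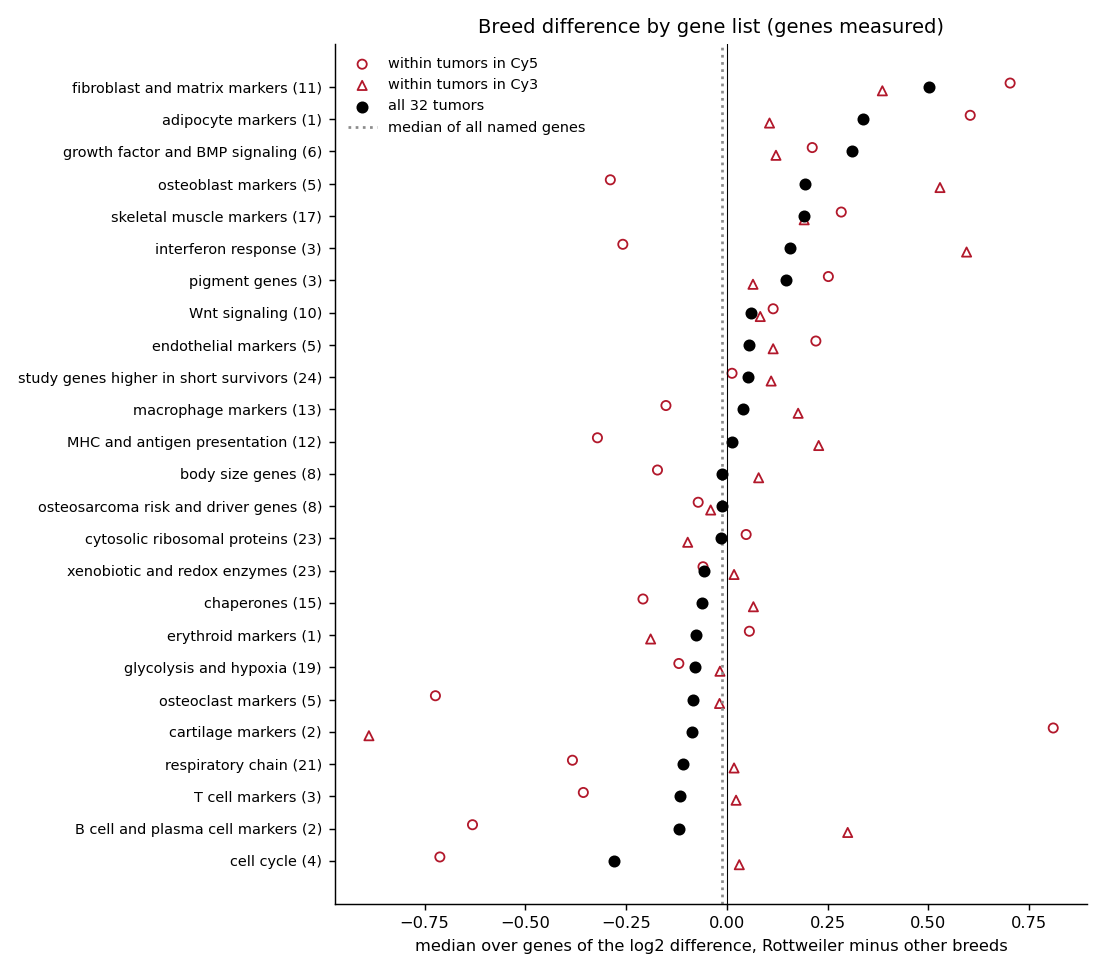
Median over the measured genes of each list (number of genes in brackets) of the log2 breed difference, Rottweiler minus other breeds and crosses, for all tumors (black) and within the Cy5 (circles) and Cy3 tumors (triangles). The fibroblast and matrix list lies at 0.50, with 0.70 and 0.39 within the orientations (0.08 over all tumors with the sign of the Cy3 arrays turned, not drawn), and 0 of its probes were called.

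Skeletal muscle and endothelial markers also had medians above 0 with the ratios as deposited. Of 36 muscle probes 10 were higher at an unadjusted p under 0.05, beside 3.28% of named probes, 15 of 17 genes were above 0 and the median was 0.19, but -0.08 with the sign of the Cy3 arrays turned. TNNT1 (1.19 ± 0.39, SE), slow troponin T, DES (0.82 ± 0.27), the filament protein desmin, and TPM2 (0.53 ± 0.20), a tropomyosin of which the other 2 probes lay at -0.04 and -0.004, had the smallest p. Without tumor 27 TNNT1 lay at 0.75. The muscle level was 1.21 in tumor 7 and 1.42 in tumor 27, and between -0.145 and 0.135 in the other 5 Rottweiler tumors. In the other dogs it lay between -0.348 and 1.643, where tumor 30 was the highest. Tumors 27 and 30 were the only tumors of the scapula, while tumor 7 came from the distal femur. The part of the site was not tested. FHL1, a LIM protein abundant in muscle and 1 of the 15 higher genes, differed by 0.70 ± 0.19 (SE) with 4 of 4 probes of that sign. ASB11 (0.36) was another of them. For these genes, the part of the muscle level in the breed difference was not tested.

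Of 13 endothelial probes 6 were higher at an unadjusted p under 0.05, beside 3.28% of named probes. They belonged to only 2 genes, all but 1 of them to PECAM1, a junction protein of endothelium and platelets, and the other to VWF, von Willebrand factor. PECAM1 ratios were -0.34, 0.71 and 0.23 in the Cy5 and 3.01, -0.24, -0.49 and -0.19 in the Cy3 Rottweiler tumors, against -1.28 to -0.30 and -1.04 to 1.18 in the others. The value of 3.01 in tumor 11 was the highest of all tumors. The difference was 0.97 ± 0.30 (SE, limma adjusted p = 0.992), and 0.57 without tumor 11. That of VWF was 0.90 ± 0.27, and its other 2 probes lay at 0.17 and 0.07. The median over the 5 genes was only 0.06. TIE1, an endothelial receptor kinase, lay at 0.10 and its other probe at -0.06.

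**Figure D3:**
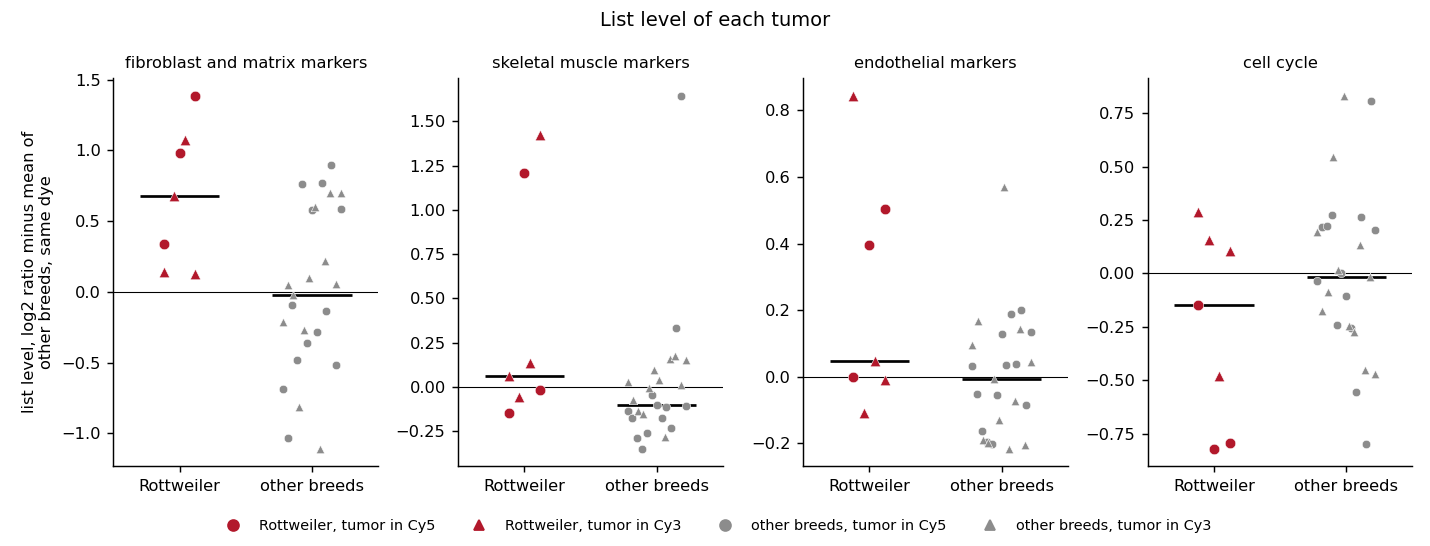
Mean log2 level of 4 lists in each tumor, centered on the mean of the other dogs of the same dye orientation, for Rottweiler tumors (left, red) and other breeds and crosses (right, grey). Bars are medians, circles are Cy5 and triangles Cy3 tumors. All 7 Rottweiler tumors lie above 0 for the matrix list, while 2 Rottweiler tumors carry most of the muscle level.

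Growth factor and BMP signaling had 3 of 11 probes higher at an unadjusted p under 0.05, beside 3.28% of named probes, and a median of 0.31 over 6 genes. That median was 0.21 in Cy5, 0.12 in Cy3 and 0.15 without tumor 16. With the sign of the Cy3 arrays turned it was 0.05. The 3 probes were of 2 genes, EGFR and TGFBR2. EGFR, the receptor of epidermal growth factor, differed by 0.57 ± 0.21 (SE), with 1.19 in Cy5, where the groups did not overlap, and 0.12 in Cy3. TGFBR2, a receptor of TGF-beta, differed by 0.61. PDGFD, a ligand of the PDGF receptors, differed by 0.53, and by 0.19 without tumor 16. CIDEA (0.34), the 1 measured adipocyte marker, was above the mean of the others in 6 of 7 Rottweiler tumors and lay at 0.20 without tumor 7. PCSK5 (0.69), a proprotein convertase, differed by 1.42 in Cy5 and 0.12 in Cy3, with its other probes at 0.74 and 0.06. PKP4 (0.48), a junction protein, had its other probes at -0.065 and 0.014. Like these, GLOD5 (0.28) and KCNJ8 (0.44, and 0.28 without tumor 32), a potassium channel subunit, were among the 15 higher genes. So were MBNL3, LOC479668, ANKRD10 and RHBDF1, given with the dye interaction below.

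On the lower side, cell cycle genes had a median of -0.28 over 4 genes, all below 0, and 0 of 9 probes passed an unadjusted p under 0.05 in either direction. CCNB2, a cyclin of mitosis, lay at -0.46 and RRM1, a subunit of ribonucleotide reductase, at -0.39. MCM7, of the replicative helicase, lay at -0.22, but another of its probes at 0.12. The median of the cell cycle genes was -0.71 in Cy5 and 0.03 in Cy3. Of 21 respiratory chain genes 19 lay below 0 with a median of -0.11, and 1 of 38 probes was lower at an unadjusted p under 0.05, beside 151 of 7694 named probes (1.96%). NDUFB3 (-0.55), UQCRFS1 (-0.33) and COX5B (-0.22) are subunits of complexes of that chain. The median was -0.38 in Cy5 and 0.02 in Cy3. For glycolysis and hypoxia, 14 of 19 genes lay below 0 with a median of -0.08, and 2 of 36 probes, both of GPI, were lower at an unadjusted p under 0.05, beside the same 1.96% of named probes. GPI (-0.28) and ALDOA (-0.32) are glycolytic enzymes. Another probe of ALDOA lay at 0.11. ADM, the hormone adrenomedullin, lay at 0.33, and at 0.033 without tumor 11.

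The remaining lists had medians between -0.12 and 0.16. Among chaperones HSPH1 lay at 1.62 ± 0.63 (SE) and HSP90B1 at 0.44, but HSP90AB1 at -0.48, and the median of 15 genes was -0.06. The ribosomal proteins RPL10 (-0.20), RPS3 (-0.17) and RPS27 (-0.18) lay below 0 in a list of 23 genes with a median of -0.02. Another probe of RPS3 lay at 0.02. T cell markers (LCK -0.17, CD3D -0.12, CD3E -0.04), the plasma cell markers JCHAIN (-0.48) and XBP1 (0.25), the macrophage markers CD163 (0.27), CD68 (-0.37) and FCGR1A (0.27) and the osteoclast markers ATP6V1C1 (-0.32), ATP6V0D2 (-0.62) and TNFRSF11A (-0.06) had 0 probes at an unadjusted p under 0.05. Of antigen presentation, DLA-79 (-0.25), PSMB9 (-0.44) and PSMB8 (-0.20) lay below 0, with a median of 0.01 over 12 genes. PSMB8 had further probes at -0.08, 0.05 and 0.06. The interferon genes OAS2 (0.31), IFIT3 (0.07) and ISG15 (0.16) and the erythroid gene CA1 (-0.08) had 0 probes at an unadjusted p under 0.05. Cartilage markers lay at -0.97 (COL2A1) and 0.40 (COMP), and neutrophil markers were not measured under the symbols listed.

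Lists of genes of body size, coat pigment and osteosarcoma risk had 0 called probes as well. Of the genes of body size IGFBP1 lay at -0.13, IGFBP2 at -0.32 and IGFBP7 at 0.60, and of pigment genes TYRP1 at 0.29 ± 0.12 (SE), TYR at 0.15 and MITF at -0.10. Of 8 measured osteosarcoma risk and driver genes, SETD2, a histone methyltransferase, lay at -0.15, DMD, dystrophin, at 0.11 and DLG2, a scaffold protein, at -1.92 with an interval of -4.07 to 0.23, and at -0.77 without tumor 23. The other probes of SETD2 lay at -0.02 and -0.01, and without tumor 32 its difference was -0.09. Wnt genes (LEF1 0.17, SFRP4 0.46, DKK3 0.24) and redox enzymes (GSTO1 -0.22, BLVRB -0.36, EPHX2 -0.12) had 0 probes at an unadjusted p under 0.05. The other probe of EPHX2 lay at 0.006. Of the genes the study listed as higher in SS, SCAF11 lay at 0.29 and FRA10AC1 at -0.25, and the median of 24 genes was 0.05.

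**Figure D4:**
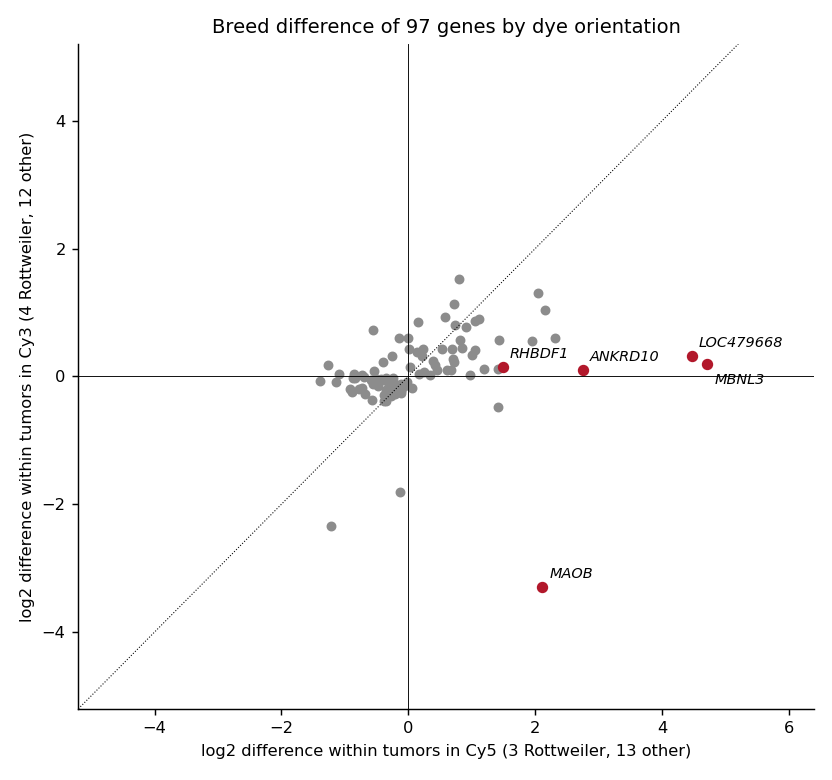
Log2 breed difference of each of 97 genes within tumors in Cy5 (horizontal) and in Cy3 (vertical), with the line of equal difference dotted. The 5 genes with the smallest p for the interaction are red, of which MBNL3, ANKRD10 and LOC479668 were called, and all but MAOB lie between 0.11 and 0.31 in Cy3.

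The breed difference differed between the tumors in Cy5 and those in Cy3 for 5 of 22176 probes (0.0225%) at a limma adjusted p under 0.10. At an unadjusted p under 0.05 there were 1072 probes (4.83%). Each dog had 1 array in 1 orientation, so the dye and the choice of dogs in each orientation cannot be told apart. MBNL3, a splicing regulator, was 0.94, 4.26 and 2.36 in Rottweiler tumors 5, 7 and 32 and -2.54 to -1.82 in the Cy3 Rottweiler tumors, against -3.11 to 1.21 (median -2.49) in the other Cy5 tumors and -2.88 to -0.89 in the other Cy3 tumors. Tumors 7 and 32 were above every other Cy5 tumor, and tumor 5 was below tumor 19. The difference was 4.71 in Cy5 and 0.19 in Cy3 (interaction 4.52 ± 0.80, SE, limma adjusted p = 0.0551). ANKRD10, an ankyrin repeat protein, gave 2.75 and 0.11 (interaction 2.63, adjusted p = 0.0551), and its other probe had a breed difference of -0.02. LOC479668 gave 4.47 and 0.31 (interaction 4.16, adjusted p = 0.0596). Probes 2988 and 21773, which have no gene name here, were the other 2 calls. LOC479668 was close to MBNL3, with 0.84, 4.21, 2.40 and 1.29 in tumors 5, 7, 32 and 19. Probe 21773 was 0.47, 4.14, 2.34 and 1.11 in the same tumors. The 5 calls therefore do not count as independent. In all of these tumor 7 was highest, tumor 32 next and tumor 5 lowest of the 3 Rottweiler tumors in Cy5. There were 0 calls without tumor 7, 11, 23 or 27, 3 without 16 or 32 and 13 without 5. Of the 5 calls, all remained without tumor 5, MBNL3 and ANKRD10 without tumor 16 and MBNL3 alone without tumor 32. The interaction of MBNL3 was 3.59 without tumor 7 and 5.24 without tumor 5, and between 4.44 and 4.77 without any of the others, where its limma adjusted p was 0.0836 to 0.19. Without tumor 7 the breed difference over all tumors was 0.79 for ANKRD10 and 0.44 for RHBDF1. RHBDF1 (0.75, interaction 1.35) and MAOB (-0.86, interaction 5.46) were not called, with an adjusted p of 0.253 each by limma.

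**Figure D5:**
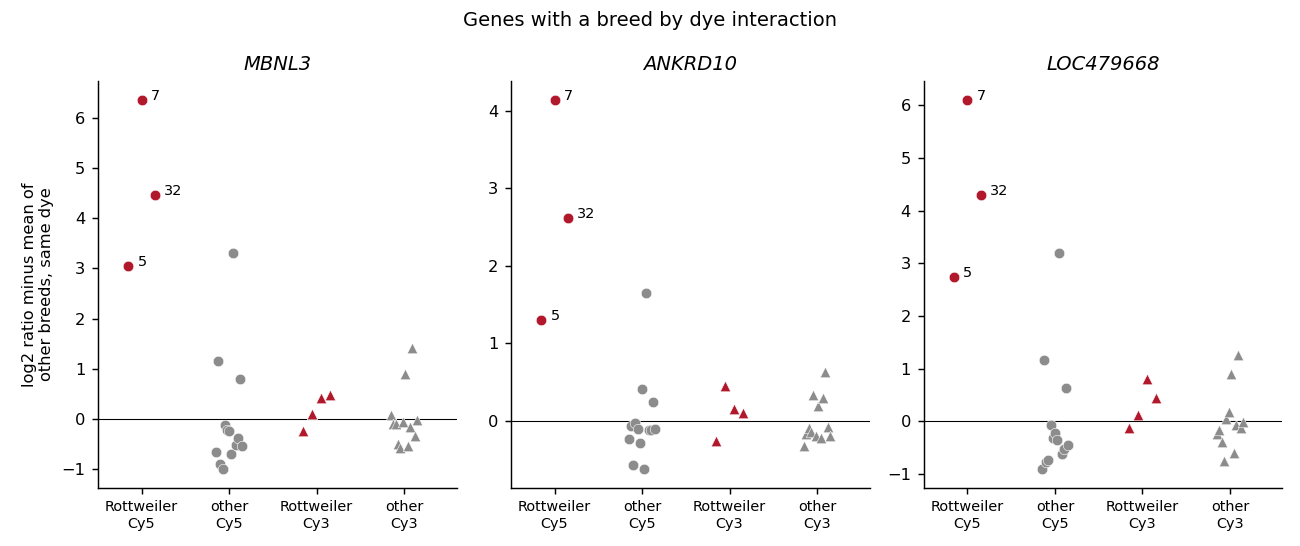
Log2 ratio of each tumor minus the mean of the other dogs of the same dye orientation (vertical axis, log2) for 3 genes with a called interaction, with Rottweiler and other tumors in Cy5 and then in Cy3. Numbers are the Rottweiler tumors in Cy5, in which tumor 7 is highest, and 1 other tumor, number 19, lies near tumor 5.

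No interaction with survival was called. The breed difference in SS and in LS tumors differed for 0 of 22176 probes (0%) at a limma adjusted p under 0.10, with a smallest adjusted p of 1.00 and 479 probes (2.16%) at an unadjusted p under 0.05. Without tumor 32, 1 unnamed probe was called. CD36 differed by 1.07 in SS and 0.41 in LS, COL3A1 by 1.85 and 1.13 and PECAM1 by 1.55 and 0.29, and none of these gaps was called.

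The likeness among Rottweiler tumors differed from that of mixed choices of tumors by less than the spread of those choices. With each probe centered within its orientation, the 9 pairs of Rottweiler tumors of 1 orientation had a mean Pearson correlation of -0.0491 across probes, against a mean of -0.0656 (SD 0.0263) over all 1019200 choices of 3 Cy5 and 4 Cy3 tumors (exact permutation test, two-sided, p = 0.513). Centering brings such correlations slightly below 0. The pairs of tumor 7 with tumors 5 and 32 had the highest values, 0.134 each, and the pair of tumors 11 and 23 the lowest, -0.146. The 87 pairs of a Rottweiler and another tumor averaged -0.0631 and the 144 pairs of other tumors -0.0679.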

How the data were processed

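Each of 32 canine osteosarcomas was hybridized on 1 two-color cDNA array against a pool of all tumors. The authors flagged defective spots, normalized by print-tip Lowess, took logarithms and switched the ratios of swapped arrays. The file deposited by them thus holds normalized log2 ratios of tumor over pool. The base, the image software and the genome build are not given in the sources used here, so base 2 and the direction are inferences and no chromosomes were described. No signal intensities were used, and array number limits the precision.

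The table held 22176 probes with 5 missing values, which limma leaves out of the fit of that probe. Annotation of the platform named 7694 probes with a single symbol (0 with several) and left 14482 unnamed here, and 7340 of those named were matched to current gene identifiers. A gene is given at its probe with the smallest p unless stated. The samples are separate dogs, with 1 array each.

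Breed differences were fitted with limma 3.58.1 in R 4.3.3 (lmFit, eBayes, two-sided, covariates dye orientation and survival group, Benjamini-Hochberg over all probes, threshold 0.10). Interactions used the same model with 1 added term. Likeness was tested by exact permutation in Python 3.11.15 with NumPy 2.4.6. The fits were tested on simulated data. Gene lists (26) were described by counts and medians over genes, with no set test. The named genes (97) are the 15 higher and 15 lower with the smallest p, the 3 members of each list with the smallest p, and the 5 genes with the smallest p for the interaction with calls. The members and lists were chosen with earlier results of these data known. For the breed difference 29 alternative settings and 32 that each leave out 1 tumor were run, covering covariates, dye slope, sign, weights, scaling, robust regression, filters, tests and subsets. Missing values were filled from 10 neighbors for Significance Analysis of Microarrays (100 permutations).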

Additional observations from a re-analysis of the deposited data

Results flagged for a closer look

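Values of the 7 Rottweiler tumors, each minus the mean of the other dogs of the same dye orientation, were examined for 1 tumor far from the other 6. Of 122 values (97 genes and 25 list levels) 9 had one (7.4%), and chance gives about 5%. Tumor 11 stood apart for 4 of them, highest for ADM (2.27), FCGR1A (1.46) and the mean level of body size genes (0.42) and lowest for COL1A2 (-1.69). Tumor 16 was highest for PDGFD (2.74) and lowest for DMD (-0.36). Tumor 7 was lowest for PRKRA (-2.38), tumor 23 for DLG2 (-8.61) and tumor 32 for LCK (-0.64).

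The breed difference differed between the orientations, by the limma interaction, Cy5 minus Cy3, for MBNL3 (4.52), ANKRD10 (2.63), LOC479668 (4.16), probe 2988 (1.12) and probe 21773 (3.69). MAOB lay above 0 in all 3 Rottweiler tumors in Cy5 and below 0 in all 4 in Cy3, with means 5.31 apart, and its interaction was not called. The mean level of the interferon response list lay below 0 in all 3 tumors in Cy5 and above 0 in all 4 in Cy3, a gap of -0.80 that was not tested. The mean level of the study genes higher in short survivors lay above 0 in the 4 SS and below 0 in the 3 LS Rottweiler tumors, a gap of 0.76 that was not tested, and the study chose that list for this contrast on these arrays.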

How the results depend on the processing

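The count of 0 probes for the breed difference held in 57 of the 61 other settings. Among the 61, the stricter threshold of 0.05 for the adjusted p could only give 0, and 32 settings each left out only 1 tumor. Robust regression called 39 probes (26 higher, 13 lower in Rottweiler tumors, smallest adjusted p 0.0258), the tumors in Cy5 alone 9 (all higher) and the limb tumors alone 2, CD209 and 1 unnamed probe. Leaving out each tumor gave 0 to 1, the 1 being CD209 without tumor 19, which is also absent from the limb tumors. The cause was not tested. Of the 39, 16 had a name, among them CD36 (adjusted p 0.0382), CD209, TIMP3, FAU, COL1A2 and TNNT1, and these together with PCSK5, MBNL3, ANKRD10 and LOC479668 in Cy5 alone were chosen after their values were seen. The smallest adjusted p was 0.103 with array weights and 0.19 with the fibroblastic component. The survival interaction called 0 to 1 probes with each Rottweiler tumor left out. The dye interaction called 0 probes at an adjusted p under 0.05 and 0 to 13 with each Rottweiler tumor left out. The p of the likeness test was 0.0948 to 0.931 with each left out, and without tumor 7 (0.193) the Rottweiler pairs correlated less than mixed choices. No paired analysis was possible because no numbers are shared between the groups.

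Of 5614 pairs of a named gene and a setting, 77 had the opposite sign, 37 of them with the sign of the Cy3 arrays turned and 40 otherwise, in 23 genes. With that sign turned the log2 differences were CD36 -0.11, ABLIM1 -0.28, TIMP3 0.068, GLOD5 -0.10, ACAA1 0.045, PECAM1 -0.009, TST 0.006, TNNT1 -0.53, USP8 0.060, DES -0.084, FBXO4 0.019, LOC475935 0.023, ACADSB 0.042, RPL10 0.093, COL5A2 -0.36, SPARC -0.084, GSTO1 0.013, PDGFD -0.38, DLG2 0.81, EPHX2 0.057, ADM -0.12, FRA10AC1 0.10, RPS3 0.066, RPS27 0.067, COL2A1 0.94, CD163 -0.13, TIE1 -0.076, OAS2 -0.32, MAOB 2.7, FCGR1A -0.38, XBP1 -0.25, CD3D 0.039, TNFRSF11A 0.038, IFIT3 -0.28, MITF 0.027, CA1 0.14 and ISG15 -0.64. In tumors in Cy3 alone they were BLVRB 0.032, ATP6V1C1 0.019, PSMB9 0.034, JCHAIN 0.17, PSMB8 0.080, COMP -0.48 and CD3E 0.22, and in Cy5 alone MAOB 2.11, FCGR1A -0.15, IFIT3 -0.26, CA1 0.056 and ISG15 -0.56. In female dogs they were ADM -0.081, HSP90B1 -0.41, RPS3 0.019, JCHAIN 0.32, MAOB 0.10, PSMB8 0.003, CD3D 0.062, IGFBP2 0.091, TNFRSF11A 0.060 and CD3E 0.12, and in males SFRP4 -0.26, DKK3 -0.11, IFIT3 -0.11, CA1 0.015 and ISG15 -0.30. In LS tumors they were TIE1 -0.036 and CD3E 0.18, against Great Danes ATP6V0D2 0.23, DKK3 -0.12 and MITF 0.23 and in limb tumors MITF 0.001 and ISG15 -0.17. Array weights gave ISG15 -0.084, quantile normalization ISG15 -0.051 and robust regression IFIT3 -0.003. With 1 tumor left out, IFIT3 lay between -0.029 and 0.13, CD3E between -0.11 and 0.061 and ISG15 between -0.16 and 0.27.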
